A study of Mus musculus with 6 samples.

Results

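Microtubule motors were examined as a family of 68 genes, chosen by symbol among the 22001 genes of the deposited count table. The family covers the numbered kinesin genes, the kinesin-1 light chains Klc1 to Klc4, the chains of cytoplasmic dynein-1 and dynein-2, the shared dynein light chains, the dynactin subunits Dctn1 to Dctn6, and the dynein regulators Nde1, Ndel1, Pafah1b1, Bicd1 and Bicd2. Enough counts for a test were present in 64 of the 68. Cells of the mouse neocortex were electroporated in utero at E13.5 and collected 24 h later, at E14.5, as mCherry-positive cells by fluorescence-activated sorting. The control plasmid carried mCherry alone, the other plasmid carried Insm1 and mCherry, and each group had 3 RNA-seq libraries. Insm1, a zinc-finger transcription factor of neuronal progenitors, was 5.61-fold higher in the Insm1 libraries, where plasmid and chromosomal copies cannot be told apart in the counts. The comparison asks how forced Insm1 changes the transcripts of electroporated cells. The driving promoter, the strain and the number of embryos per library are not given in the labels.

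Kinesins and dynein are ATP-driven motors that walk along microtubules, most kinesins toward the plus end and dynein toward the minus end. Some kinesins build the mitotic spindle and the cleavage furrow and are made mainly by dividing cells, whereas others carry vesicles, organelles and ciliary cargo in neurons and other cells. Dynein needs its cofactor dynactin for long runs and is regulated by Lis1, the product of Pafah1b1, with Nde1 and Ndel1. In the developing cortex dynein moves the nuclei of radial glia toward the ventricle and pulls the nucleus forward in migrating neurons.

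Library totals lay between 30017645 and 31645135 counts. Replicates are numbered without a statement that they came from different litters or embryos, so p-values reflect only how far these libraries spread, which may be technical. Control 2 differed most from the other controls, with a chi-square per degree of freedom of 31.05 and 29.98 against controls 1 and 3, where controls 1 and 3 gave 12.43. Defining markers of the labelled tissue were present: the 8 markers of newborn and projection neurons summed to 6607 to 8680 CPM (counts relative to the library's total, scaled by TMM) and the 10 of apical progenitors to 2342 to 3595 CPM, while the 5 endothelial markers summed to at most 2.01 CPM. Red blood cell markers summed to 406, 3133 and 186 CPM in the controls and to 3670, 2443 and 1713 CPM with Insm1. All 6 had positive values, with a median log2 fold change of 1.04. Microglial markers summed to 1.10, 59.3 and 7.31 CPM in the controls and to 8.79, 30.9 and 12.6 CPM with Insm1. Control 2 was the highest control in both sums. The groups overlapped in both, and no member of either list was called.

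After Insm1, 1 motor gene rose and 2 fell at an adjusted p below 0.05 in edgeR's quasi-likelihood test, and 61 did not pass. The kinesin Kif21b rose, and the kinesin Kif26a and the dynein intermediate chain Dync1i1 fell. Of all 13560 tested genes 3.35% were called, 1.23% higher and 2.12% lower, against 4.69% of the tested motor genes, 1.56% higher and 3.12% lower. With 3 genes called, that share is near the background and says nothing of the family as a whole. In 17 of the 64 motor genes (26.6%) every library of one group lay beyond every library of the other, 11 higher and 6 lower, against 22.2% of all tested genes. The median log2 fold change was 0.03 over the motor genes and -0.01 over all genes, and the median absolute log2 fold change was 0.13 against 0.15. Only 5 of the 64 lay beyond 0.5 in either direction. On the deposited TPM values, where the log2 fold changes of all genes shift by -0.06 in the median, the medians of the whole family (-0.03), of the transport kinesins (-0.01), of the shared dynein light chains (-0.03) and of the dynein regulators (-0.02) turn negative, so the sign of these small medians depends on the scaling.

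**Figure D1:**
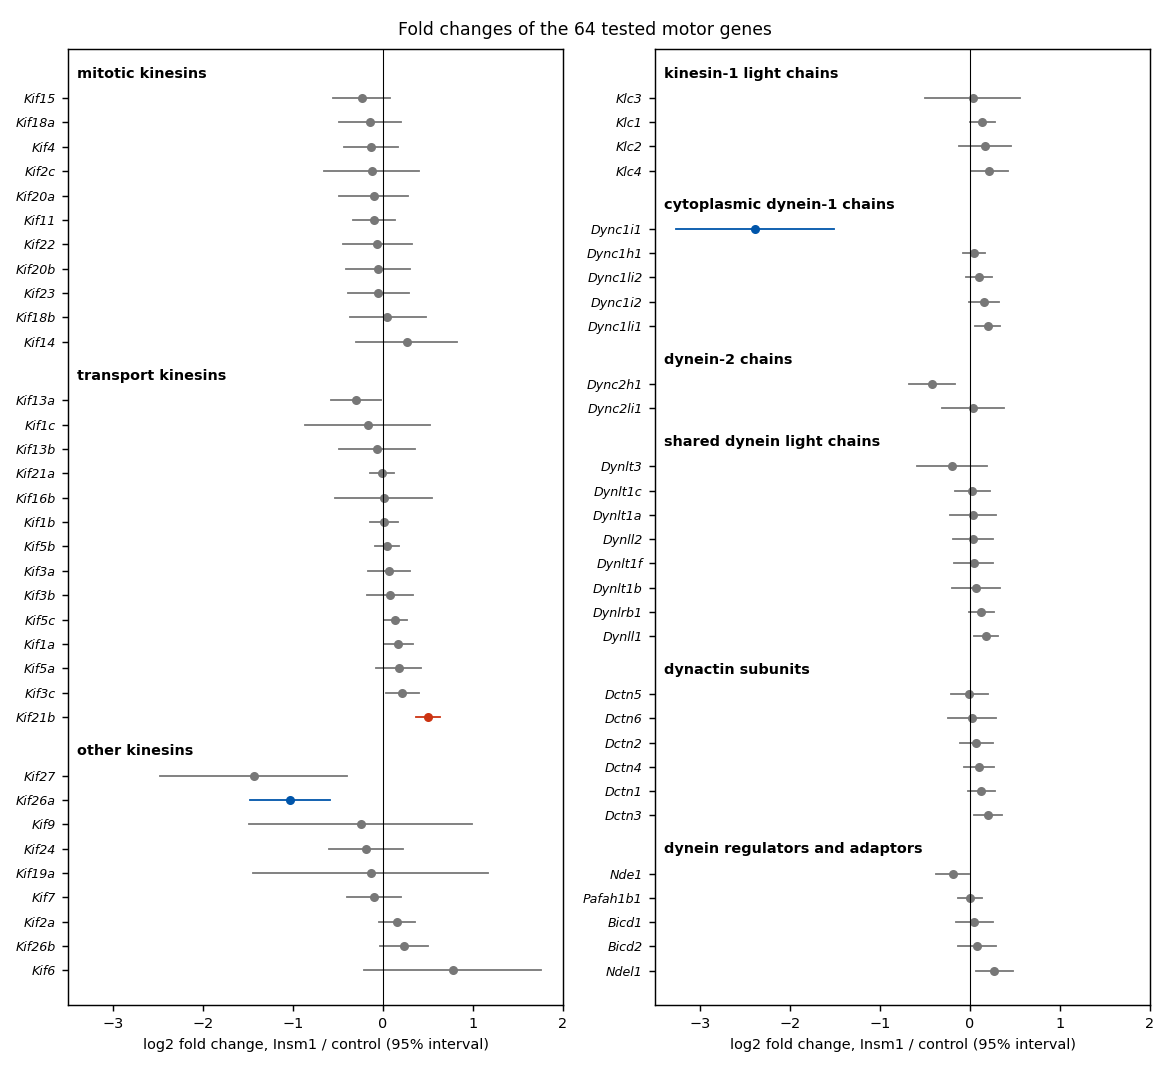
Log2 fold change (horizontal axis, Insm1 over control) with its 95% interval for each of the 64 tested motor genes, grouped by role. Kif21b is drawn in red as called higher and Kif26a and Dync1i1 in blue as called lower, and all mitotic kinesins lie between -0.24 (Kif15) and 0.26 (Kif14).

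Among the mitotic kinesins none passed the test in either direction. The list has 12 genes, of which 11 were tested and Kif2b had no count in any library (3 counts in a library, the limit that 0 allows, would be 0.0970 to 0.0979 CPM, for counting error only). The median log2 fold change was -0.10, with 9 values negative and 2 positive, and the groups overlapped in all 11 genes. Kif11, the plus-end motor that pushes the spindle poles apart, was at 193, 252 and 214 CPM in controls 1, 2 and 3 and at 224, 183 and 209 CPM in Insm1 libraries 1, 2 and 3. Its log2 fold change was -0.10 with a 95% interval from -0.33 to 0.14. Kif20a, which brings the chromosomal passenger complex to the central spindle, was at 82.8, 117 and 104 CPM in the controls and at 118, 75.9 and 89.5 CPM with Insm1. Kif23, the kinesin of the centralspindlin complex that marks the cleavage site, was at 64.5, 91.1 and 68.5 CPM in the controls and at 86.1, 63.5 and 66.6 CPM with Insm1. In Kif20a and Kif23 the spread inside each group exceeded the difference of the means, 101 ± 17.2 against 94.3 ± 21.2 CPM and 74.7 ± 14.3 against 72.0 ± 12.2 CPM (SD, n = 3). The widest interval was that of Kif14, a motor of cytokinesis, whose log2 fold change of 0.26 had an interval from -0.30 to 0.83. The more abundant Kif2c, at 81.0 ± 17.0 and 74.3 ± 20.5 CPM (SD, n = 3), had one nearly as wide, from -0.65 to 0.40.

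The mitotic kinesins moved together between libraries of one group. Control 2 was the highest control and control 1 the lowest in all 11 tested genes, and Insm1 library 1 was the highest and Insm1 library 2 the lowest of its group in all 11. Relative to each gene's mean over the 6 libraries, the median gene lay at -0.21, 0.27 and 0.01 on the log2 scale in controls 1, 2 and 3 and at 0.22, -0.32 and -0.03 in Insm1 libraries 1, 2 and 3. Their summed CPM was 810, 1125 and 928 in the controls and 1044, 739 and 897 with Insm1, so the spread within a group was larger than the distance between the groups. The 28 spindle and cytokinesis genes that are not named as numbered kinesins, such as Tpx2, Prc1 and Aurkb, gave none called and a median log2 fold change of -0.09. In that list control 2 was the highest control in 26 of 28 genes and Insm1 library 2 the lowest of its group in 27 of 28. Summed markers of basal progenitors had the same order of libraries, 1214, 1381 and 1355 CPM in controls 1, 2 and 3 and 1501, 1148 and 1280 CPM in Insm1 libraries 1, 2 and 3. Of these 6 markers only Neurog2 had the full order by itself. Eomes, the most abundant, was at 444, 394 and 409 CPM in controls 1, 2 and 3, and Btg2 too was lowest in control 2. The part of a differing share of dividing cells in the order of the mitotic kinesins was not tested. Without control 2 the median log2 fold change of the mitotic kinesins was 0.02, and without Insm1 library 2 it was 0.03, so its negative sign rests on either of these libraries.

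**Figure D2:**
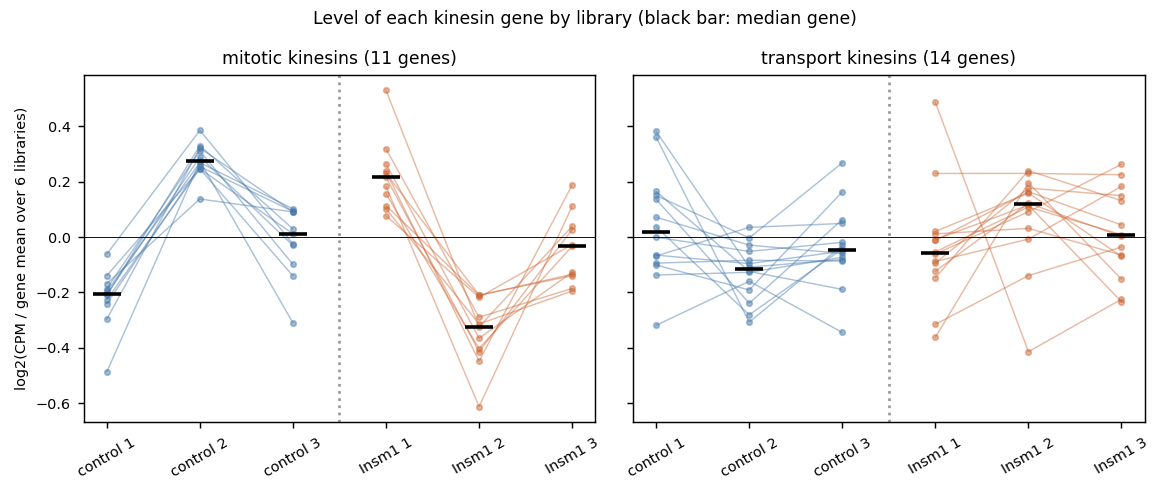
Each point is the CPM of a gene in a library relative to that gene's mean over the 6 libraries, on a log2 scale, for the 11 mitotic (left) and 14 transport kinesins (right); lines join the points of a gene within a group, whose libraries have no order, and black bars mark the median gene. Mitotic kinesins share high values in control 2 and Insm1 library 1 (medians 0.27 and 0.22) and low values in Insm1 library 2 (-0.32), which transport kinesins do not show.

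As the levels of the mitotic kinesins moved together between libraries, the 250 bases before their starts are shown for the 4 of highest mean CPM that have an entry in the RefSeq promoter table of GRCm38.p6. Capitals mark copies, on either strand, of TTTGAA or TTTAAA, the letters of the cell cycle homology region known from late cell cycle promoters, and of ATTGG, the core of the CCAAT box that NF-Y binds.
Kif11, chr19:37376132-37376381, plus strand: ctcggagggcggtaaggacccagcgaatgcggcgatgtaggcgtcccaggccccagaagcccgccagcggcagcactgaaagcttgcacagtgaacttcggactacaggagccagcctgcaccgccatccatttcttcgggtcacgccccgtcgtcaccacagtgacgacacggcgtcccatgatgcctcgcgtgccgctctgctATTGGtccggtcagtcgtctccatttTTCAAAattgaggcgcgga
Kif22, chr7:127042421-127042670, minus strand: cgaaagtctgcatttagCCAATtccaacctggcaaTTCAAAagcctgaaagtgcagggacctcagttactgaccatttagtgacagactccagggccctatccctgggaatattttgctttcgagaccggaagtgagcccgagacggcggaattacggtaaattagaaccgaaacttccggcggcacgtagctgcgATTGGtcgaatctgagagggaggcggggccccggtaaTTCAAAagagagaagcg
Kif4, chrX:100625815-100626064, plus strand: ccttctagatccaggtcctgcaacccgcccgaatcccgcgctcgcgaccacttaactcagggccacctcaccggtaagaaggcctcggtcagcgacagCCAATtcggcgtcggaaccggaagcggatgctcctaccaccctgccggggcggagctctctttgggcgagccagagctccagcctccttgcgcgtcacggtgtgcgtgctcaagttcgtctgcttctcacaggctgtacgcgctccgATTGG
Kif15, chr9:122950831-122951080, plus strand: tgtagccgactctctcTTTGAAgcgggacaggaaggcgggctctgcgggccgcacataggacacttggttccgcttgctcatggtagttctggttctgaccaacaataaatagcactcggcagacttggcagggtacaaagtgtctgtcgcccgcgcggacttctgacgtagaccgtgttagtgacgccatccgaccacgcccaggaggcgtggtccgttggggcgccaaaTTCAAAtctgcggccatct
In Kif11, Kif22 and Kif15 a copy of TTCAAA, the reverse complement of TTTGAA, begins 19, 17 and 19 bases before the start. In Kif11 and Kif22 a copy of ATTGG begins 45 and 54 bases before it. These starts are those of the promoter table. In GENCODE M21 the genes Kif22 and Kif15 begin further upstream, at 127042471 and 122951046, and these TTCAAA copies lie inside them. Kif4 begins there at 100625737, so its whole window lies inside the gene. Such windows were found for 11 of the 12 mitotic kinesins, without Kif20a. TTTGAA or TTTAAA was in 5 of these 11 windows (45.5%), in 1 of 13 windows of transport kinesins (7.7%) and in 25.2% of all 32841 windows of the table. ATTGG was in 7 of 11 mitotic windows (63.6%), in 4 of 13 transport windows (30.8%) and in 33.9% of all windows. CAGNTG, the E-box letters that proneural factors bind, was in 2 of 11 mitotic windows (18.2%), 9 of 13 transport windows (69.2%) and 44.8% of all windows. These counts describe letters in a window, the 13 transport windows belong to 11 genes, and no test was made of them. Kif1a and Kif1b each count more than once among the windows with CAGNTG. Kif21b, the transport kinesin that was called, has no window in the table, and neither have Kif5a, Kif5b and Kif13b.

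Of the transport kinesins, which carry cargo along axons, dendrites and cilia or set microtubule dynamics there, 14 of 15 were tested, 1 rose and none fell. Their median log2 fold change was 0.06, with 10 values positive and 4 negative. Kif21b (ENSMUSG00000041642, protein-coding, chromosome 1, 136131389 to 136177998, plus strand, GRCm38) encodes a plus-end kinesin of neurons that also restrains microtubule growth. It was at 502, 560 and 493 CPM in controls 1, 2 and 3 and at 734, 734 and 732 CPM in Insm1 libraries 1, 2 and 3. Every Insm1 library lay above every control, and the Insm1 libraries were nearly equal. The rise was 1.41-fold, from 518 ± 36.6 to 733 ± 1.38 CPM (SD, n = 3), with a log2 fold change of 0.50, a standard error of 0.06, a 95% interval from 0.37 to 0.64 and an adjusted p of 0.00525. The call was kept with each of the 6 libraries left out, at adjusted p values from 0.00108 to 0.0325 and log2 fold changes from 0.47 to 0.56. Its close relative Kif21a, which acts at the cell cortex, was at 274 ± 12.0 and 271 ± 9.53 CPM (SD, n = 3), with a log2 fold change of -0.01 and an interval from -0.15 to 0.12. Summed markers of newborn and projection neurons were also higher without overlap, from 6607 to 6763 CPM in the controls against 7947 to 8680 CPM with Insm1, and 6 of 8 of them were called higher. Their part in the rise of Kif21b was not tested.

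**Figure D3:**
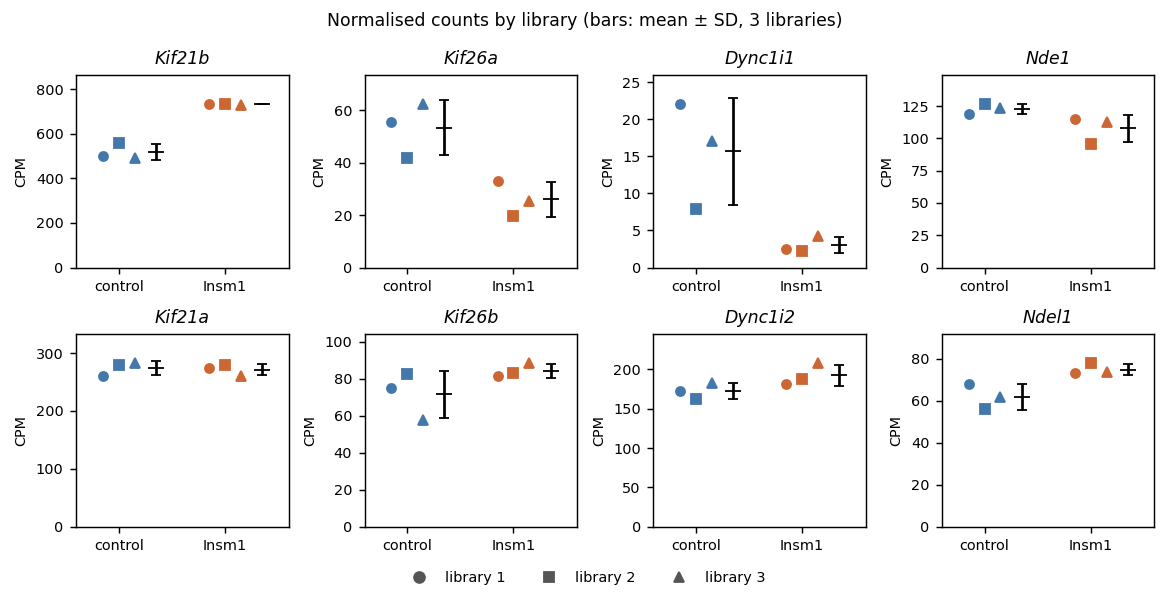
CPM by library (points; circle, square and triangle for libraries 1, 2 and 3) with mean and SD over 3 libraries for the motor genes Kif21b, Kif26a, Dync1i1 and Nde1 (top) and a close relative of each (bottom). Kif21b sits between 732 and 734 CPM with Insm1, above every control, while Kif21a overlaps between the groups.

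The other abundant transport kinesins differed less. Kif5c, a heavy chain of kinesin-1 made mainly in neurons, was at 807, 789 and 814 CPM in the controls and at 837, 945 and 870 CPM with Insm1. Its groups did not overlap, yet its log2 fold change of 0.14 (interval 0.01 to 0.27) had an adjusted p of 0.253. Kif5b, the heavy chain found in most cells, was at 399 ± 7.18 and 412 ± 23.5 CPM (SD, n = 3), and the neuronal Kif5a at 142, 114 and 134 CPM in the controls and 125, 163 and 151 CPM with Insm1. Kif1a, the motor of synaptic vesicle precursors, was within 326 to 329 CPM in the controls, and with Insm1 it was at 327, 394 and 386 CPM (adjusted p = 0.271). Insm1 library 1 thus matched the controls in Kif1a and the other Insm1 libraries lay above them. Kif3c, a kinesin-2 of neurons, was 1.16-fold higher without overlap (adjusted p = 0.213), and shares exon sequence with 1110002L01Rik on the other strand. Kif13a, which carries endosomal cargo, was the transport kinesin with the largest negative value, 29.1 ± 2.72 against 23.6 ± 2.28 CPM (SD, n = 3), again without overlap and without passing (adjusted p = 0.245). Kif17 had 0 to 10 counts per library and was not tested.

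In summed CPM the transport kinesins were higher with Insm1, 3535, 3478 and 3492 against 3682, 4091 and 3914, with no overlap. The lack of overlap rests on Kif21b, at 502, 560 and 493 CPM in the controls and 734, 734 and 732 CPM with Insm1. Without Kif21b the sum of Insm1 library 1 would lie below those of controls 1 and 3. Weighted by exon length, the sums were 1474, 1430 and 1516 TPM (counts per kilobase of exon, scaled to a fixed total per library) in the controls. These overlapped the sums of 1483, 1634 and 1582 TPM with Insm1. Within the Insm1 group the order of libraries was unlike that of the mitotic kinesins: Insm1 library 2 was the highest in 10 of 14 transport kinesins and Insm1 library 1 the lowest in 9. Among the controls, control 2 was the lowest in 8 of 14.

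Of the remaining kinesins, which shape microtubule ends, serve cilia or act in signalling, 9 of 10 were tested, 1 fell and none rose. Kif26a (ENSMUSG00000021294, protein-coding, chromosome 12, 112146208 to 112181747, plus strand, GRCm38) encodes an atypical kinesin without motor activity that restrains GDNF-Ret signalling in enteric neurons. It was at 55.6, 41.8 and 62.4 CPM in the controls and at 33.1, 19.8 and 25.2 CPM with Insm1. The groups did not overlap, and control 2 was the control nearest to the Insm1 libraries. The mean of Kif26a went from 53.3 ± 10.5 to 26.0 ± 6.67 CPM (SD, n = 3), a fall of 2.05-fold with a log2 fold change of -1.03, a standard error of 0.20, a 95% interval from -1.48 to -0.59 and an adjusted p of 0.0234. The call was lost without control 1 (adjusted p = 0.0837), control 3 (0.11), Insm1 library 2 (0.0644) or Insm1 library 3 (0.101), and with limma on log2(TPM + 1) of the deposited TPM values (0.0938). The log2 fold change stayed between -1.24 and -0.87 with single libraries left out. Its relative Kif26b, linked to Wnt5a-Ror signalling, averaged 71.8 ± 12.7 CPM in the controls and 84.3 ± 3.67 CPM with Insm1 (SD, n = 3) and had adjusted p = 0.375. Kif27, a relative of the hedgehog pathway kinesin Kif7, was low at 1.39, 2.34 and 2.87 CPM in the controls and 1.16, 0.746 and 0.517 CPM with Insm1. Its log2 fold change of -1.44 did not pass (adjusted p = 0.138). Kif2a, which takes apart microtubule ends and limits collateral branches of axons, averaged 64.4 ± 4.65 CPM in the controls and 71.8 ± 5.10 CPM with Insm1 (SD, n = 3) and had adjusted p = 0.446. Kif6, a kinesin of motile cilia, had the largest positive log2 fold change of the family, 0.77, at 1.27 ± 0.453 and 2.17 ± 0.789 CPM (SD, n = 3), with an interval from -0.21 to 1.76. Kif9 was at 0.692 ± 0.355 and 0.582 ± 0.141 CPM (SD, n = 3), and Kif12 had no count in any library. The exon-length TPM of these kinesins summed to 109, 108 and 112 in the controls and to 95.3, 94.2 and 99.9 with Insm1. That sum was lower without overlap, which rests on Kif26a, and their summed CPM overlapped.

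All 4 kinesin-1 light chains, which bind cargo to Kif5 motors, had positive values in edgeR's fit, with a median log2 fold change of 0.15, and none passed. Klc1, the neuronal chain, was at 173, 181 and 181 CPM in the controls and at 205, 187 and 196 CPM with Insm1, without overlap (adjusted p = 0.295). Klc4 was at 52.8 ± 4.94 and 61.3 ± 0.572 CPM (SD, n = 3), also without overlap (adjusted p = 0.258). Their exon-length TPM summed to 256, 270 and 264 in the controls and to 296, 273 and 282 with Insm1.

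Among the 5 cytoplasmic dynein-1 chains only Dync1i1 was called. Dync1i1 (ENSMUSG00000029757, protein-coding, chromosome 6, 5725639 to 6028039, plus strand, GRCm38) encodes an intermediate chain, the subunit that joins the heavy chains to dynactin and the light chains, and is the form found chiefly in neurons. It was at 22.1, 7.89 and 17.1 CPM in controls 1, 2 and 3, from 682, 243 and 524 counts. With Insm1 it was at 2.55, 2.20 and 4.20 CPM, from 79, 68 and 130 counts. All Insm1 libraries lay below all controls, and control 2 was the control nearest to them. The mean of Dync1i1 went from 15.7 ± 7.20 to 2.99 ± 1.07 CPM (SD, n = 3), a fall of 5.25-fold with a log2 fold change of -2.39, a standard error of 0.39, a 95% interval from -3.27 to -1.52 and an adjusted p of 0.0124. Leaving out control 2 gave an adjusted p of 0.00137, and the call was lost without control 3 (0.0591), Insm1 library 1 (0.0562) or Insm1 library 2 (0.0555). It was lost too with limma on log2(TPM + 1) of the deposited values (log2 fold change -0.42, adjusted p = 0.128), where every Dync1i1 value is below 1 TPM. The log2 fold change stayed between -2.72 and -2.05 over the 6 fits. In bulk RNA of sorted cells, fewer cells of a type and less RNA per cell cannot be told apart.

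Summed markers of maturing neurons were also lower with Insm1, while those of Cajal-Retzius cells overlapped between the groups. The 10 markers of maturing neurons summed to 657, 500 and 667 CPM in controls 1, 2 and 3 and to 399, 384 and 470 CPM with Insm1. That sum was lower without overlap, and 3 of the 10 were called lower (Mef2c, Grin2b and Camk2b). All 10 values were negative, 6 genes separated the groups, and Syt4, Snap25, Gap43 and Nefm overlapped. The 5 markers of Cajal-Retzius cells, early neurons of the cortical surface, summed to 130, 34.0 and 127 CPM in the controls and to 51.3, 39.7 and 34.6 CPM with Insm1. None of these 5 was called, all 5 had negative values, and control 2 had the lowest sum of all 6 libraries, below every Insm1 library, while its Dync1i1 level lay above them. The Cajal-Retzius marker Trp73 was at 0.0650 CPM in control 2. The 7 markers of interneurons, of which 6 were tested, were low, with sums of 11.5, 8.37 and 16.3 CPM in the controls and 8.21, 6.97 and 5.53 CPM with Insm1. That sum was lower without overlap, control 2 was again the lowest control, 5 of the 6 values were negative with a median log2 fold change of -0.83, and none was called. The part of these cell types in the fall of Dync1i1 was not tested.

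**Figure D4:**
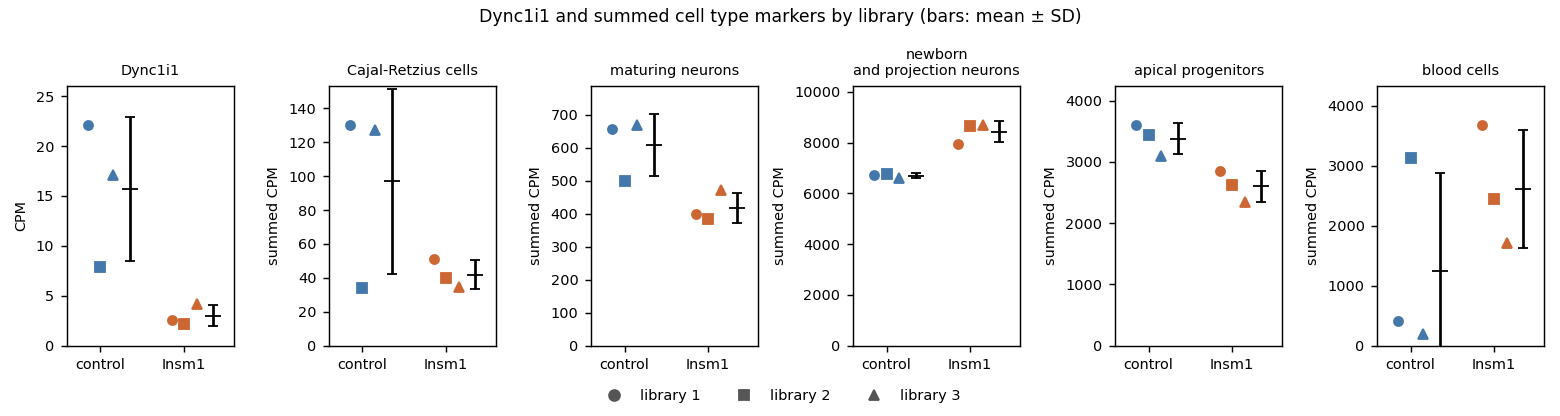
CPM of Dync1i1 and summed CPM of fixed cell type markers by library, with mean and SD over 3 libraries (bars that would reach below 0 end at the axis). Control 2 is the lowest control for Dync1i1 (7.89 CPM), Cajal-Retzius cells (34.0 CPM) and maturing neurons (500 CPM), and newborn neuron markers run the other way between the groups.

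The second intermediate chain, Dync1i2, which is made in most cells, was at 173, 162 and 183 CPM in the controls and at 182, 188 and 208 CPM with Insm1 (log2 fold change 0.16, interval -0.01 to 0.32, adjusted p = 0.312). Per exon length Dync1i1 made up 22.8%, 10.1% and 17.9% of the intermediate chain transcripts in the controls and 3.15%, 2.64% and 4.48% with Insm1. Its share thus went from 16.9% ± 6.41 to 3.43% ± 0.950 (SD, n = 3), while Dync1i2 held the larger share in all 6 libraries. The size of this share depends on the length used, here 3572 bases of exon for Dync1i1 and 8280 for Dync1i2. On the deposited TPM values it was 1.51% ± 0.66 in the controls and 0.26% ± 0.08 with Insm1 (SD, n = 3), also lower without overlap. The heavy chain Dync1h1, which holds the motor itself, averaged 640 ± 16.7 CPM in the controls and 663 ± 31.0 CPM with Insm1 (SD, n = 3) and had adjusted p = 0.742. Both light intermediate chains, which bind cargo adaptors, had small positive values, with Dync1li1 at 161 ± 4.72 and 184 ± 7.50 CPM (SD, n = 3), without overlap (adjusted p = 0.129), and Dync1li2 at 196 ± 8.18 and 210 ± 12.1 CPM (SD, n = 3), where adjusted p = 0.505. The summed exon-length TPM of dynein-1 chains overlapped between the groups, at 489 to 525 in the controls and 501 to 548 with Insm1.

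Dynein-2 is the minus-end motor of transport inside cilia. Its heavy chain Dync2h1 was at 78.0, 69.3 and 69.1 CPM in the controls and at 57.6, 59.2 and 44.9 CPM with Insm1, without overlap. The log2 fold change of -0.42 (interval -0.68 to -0.16) had an adjusted p of 0.0838 in edgeR's test and 0.0139 in DESeq2, the only member whose side of the threshold differed between these tools. The light intermediate chain Dync2li1 averaged 11.8 ± 1.45 CPM in the controls and 12.1 ± 0.481 CPM with Insm1 (SD, n = 3) and had adjusted p = 0.951.

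None of the 8 tested light chains shared by dynein complexes passed. Dynll1, a small hub protein also found outside dynein, was at 409, 430 and 449 CPM in the controls and at 498, 491 and 467 CPM with Insm1, without overlap (log2 fold change 0.18, adjusted p = 0.142). Dynlrb1, of the roadblock family, was at 151 ± 1.92 and 165 ± 8.26 CPM (SD, n = 3), without overlap (adjusted p = 0.351). Dynlrb2 had 16 counts in control 1, 1 in control 3 and 0 in the other libraries and was not tested. The Tctex-type genes Dynlt1a, Dynlt1b, Dynlt1c and Dynlt1f had log2 fold changes between 0.03 and 0.07. These 4 are near-identical copies, with 54.9%, 82.6%, 82.4% and 83.3% of their 75-base windows found in another copy, so how reads were split among them is uncertain.

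The 6 dynactin subunits in the family also gave no call, with a median log2 fold change of 0.09 and 5 of 6 values positive. Dctn1, the large subunit that contacts microtubules and dynein, averaged 189 ± 8.78 CPM in the controls and 207 ± 13.1 CPM with Insm1 (SD, n = 3) and had adjusted p = 0.399. Dctn2, called dynamitin because its excess breaks dynactin apart, averaged 211 ± 16.5 CPM in the controls and 222 ± 18.4 CPM with Insm1 (SD, n = 3) and had adjusted p = 0.740. Dctn3 was at 88.0, 85.0 and 86.6 CPM in the controls and at 102, 95.9 and 99.9 CPM with Insm1, without overlap (adjusted p = 0.163). In exon-length TPM the 6 subunits summed to 738, 723 and 740 in the controls and to 769, 761 and 783 with Insm1. That sum was higher in every Insm1 library than in any control, which rests on Dctn3. Without Dctn3 the sum of Insm1 library 1 would lie below every control.

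Of the dynein regulators, Nde1 and Ndel1 lay in opposite directions and neither passed. Nde1, a Lis1-binding protein that neural progenitors need to divide, was at 119, 127 and 124 CPM in the controls and at 115, 95.3 and 113 CPM with Insm1 (log2 fold change -0.19, adjusted p = 0.274). Ndel1, its relative used in migrating neurons, was at 68.2, 56.0 and 61.6 CPM in the controls and at 73.1, 77.9 and 73.6 CPM with Insm1 (log2 fold change 0.27, adjusted p = 0.151). In both genes the groups did not overlap. Per exon length Nde1 made up 66.9% ± 2.91 of the pair in the controls and 59.3% ± 3.36 with Insm1 (SD, n = 3), also without overlap. The summed CPM of apical progenitor markers was lower without overlap, at 3100 to 3595 in the controls and 2342 to 2851 with Insm1, and 4 of 10 were called lower. Pax6, Hes5 and Glul overlapped between the groups, and so did the sum of the list on the deposited TPM values. The part of apical progenitors in the Nde1 values was not tested. Pafah1b1, which encodes Lis1, was at 169 ± 2.96 and 168 ± 6.30 CPM (SD, n = 3), with an interval of the log2 fold change from -0.14 to 0.13. The adaptors Bicd1 and Bicd2, which tie dynein to dynactin and cargo, had log2 fold changes of 0.05 and 0.08. The regulators' exon-length TPM summed to 351.8, 346.5 and 355.9 in the controls and to 345.8, 337.2 and 336.5 with Insm1. That sum was lower without overlap, with Insm1 library 1 close to control 2, whereas their summed CPM overlapped. Without Nde1 the exon-length sums of Insm1 libraries 1 and 2 would lie above every control.

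**Figure D5:**
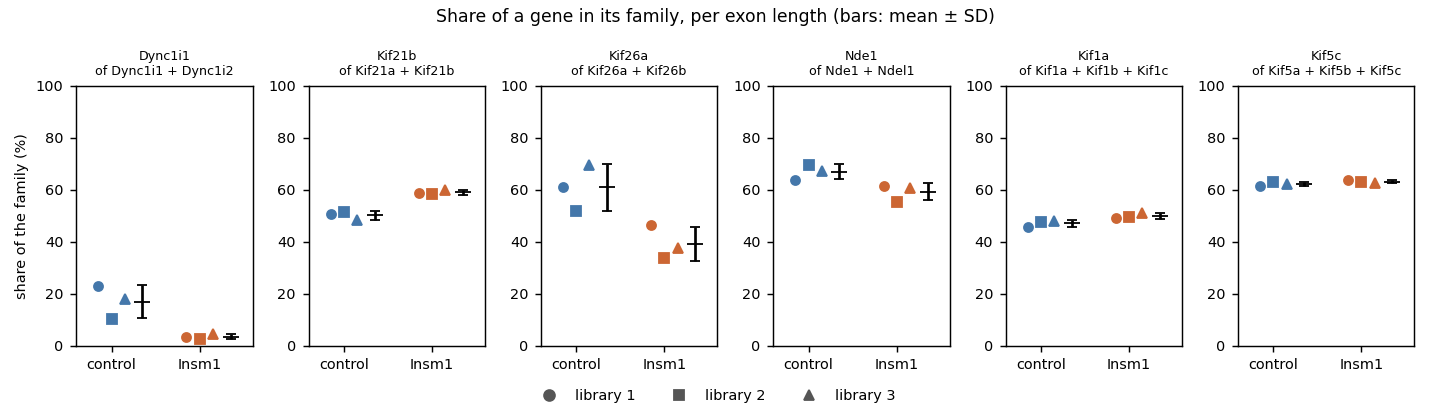
Share of 1 gene in its family, in percent of the family's exon-length TPM, by library with mean and SD over 3 libraries. Dync1i1 (16.9% to 3.43%), Kif26a (60.9% to 39.2%) and Nde1 are lower without overlap, Kif21b (50.1% to 59.0%) and Kif1a are higher without overlap, and Kif5c overlaps.

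In other families, Kif21b went from 50.1% ± 1.78 to 59.0% ± 0.810 of the Kif21 pair and Kif26a from 60.9% ± 8.92 to 39.2% ± 6.52 of the Kif26 pair (SD, n = 3). Among the Kif1 genes Kif1a went from 47.0% ± 1.30 to 49.8% ± 1.07 (SD, n = 3), without overlap. Kif5c made up 62.1% ± 0.750 and 63.1% ± 0.560 of kinesin-1 heavy chains (SD, n = 3), with overlap, and Kif5b 27.6% ± 0.270 and 26.3% ± 0.290, without overlap. These shares are descriptions, depend in size on the exon lengths used, and were not tested.

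Ordered by level per exon length in the controls, the light chains and kinesin-1 led the family. Dynlrb1 was at 546 ± 16.3, Kif5c at 411 ± 13.3, Dynll1 at 403 ± 23.5 and Dctn3 at 303 ± 8.65 exon-length TPM (SD, n = 3). Kif5c and Dynll1 did not differ beyond their spread. A group of close levels followed, with Kif5b at 183 ± 5.48, Klc1 at 160 ± 5.37, Kif21b at 155 ± 8.80 and Kif21a at 154 ± 7.97 exon-length TPM (SD, n = 3), of which the last 3 did not differ beyond their spread. Kif11 was the highest mitotic kinesin at 107 ± 13.7 exon-length TPM, and Dync1i1 was at 16.1 ± 7.43, near the ciliary heavy chain Dync2h1 at 16.1 ± 1.11 (SD, n = 3). With Insm1, Kif21b was at 212 ± 0.634 exon-length TPM (SD, n = 3), above Kif5b at 182 ± 9.77 (SD, n = 3). The order of levels depends on the exon length, which joins all annotated exons of a gene. For Dynll1 it equals the gene span, 3890 bases, which lowers its exon-length TPM. Dynlt1a and Dynlt1b, at 32.8 and 29.3 CPM in the controls, were at 28.0 and 139 exon-length TPM, over 4267 and 771 bases.

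Partners that the symbol rule does not take were counted from lists of their own. Of 34 tested motor partners and cargo adaptors, among them the kinesin-2 subunit Kifap3, the Hook and Trak adaptors and the actin-related dynactin genes, 1 fell and none rose. That gene was Nin, which encodes ninein, a centrosomal protein that anchors microtubules and activates dynein, at 41.3, 27.6 and 39.7 CPM in the controls and 18.4, 12.3 and 11.2 CPM with Insm1. Nin fell 2.60-fold (log2 fold change -1.38, standard error 0.21, adjusted p = 0.0106), without overlap. Of 13 tested partners of Lis1 and nuclear migration 1 fell and none rose. That gene was Clip1, which encodes the plus-end protein CLIP-170, at 85.4, 90.9 and 99.6 CPM in the controls and 64.2, 66.5 and 61.8 CPM with Insm1. Clip1 fell 1.43-fold (log2 fold change -0.52, standard error 0.08, adjusted p = 0.0111), without overlap. The share called lower was 2.94% of the motor partners and 7.69% of the Lis1 partners, against 2.12% of all tested genes. With 1 gene called in each, these shares say nothing of the lists as a whole. The Nin call was lost without control 3 (adjusted p = 0.0583), and the Clip1 call without control 3 (0.0587) or Insm1 library 3 (0.0505), and limma on log2(TPM + 1) called neither (0.0699 and 0.0903). The doublecortin gene Dcx, whose protein stabilises microtubules in migrating neurons, averaged 1064 ± 72.4 CPM in the controls and 1135 ± 134 CPM with Insm1 (SD, n = 3) and had adjusted p = 0.670. Exons of Kif21b, Kif26a, Dync1i1, Nin and Clip1 do not overlap another gene of the table, whereas those of Nde1, Klc1, Klc3, Kif18a, Kif20a, Kif4, Kif2a, Kif7, Kif3c and Dynlt1a overlap a gene on the other strand, whose reads cannot be told apart in libraries that do not mark strand.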

How the data were processed

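RNA-seq libraries of sorted mCherry-positive neocortical cells, 3 controls and 3 with Insm1, were grouped by the labels. Per the labels' protocols, cDNA was made with a poly-dT primer and template switching and read as single 75-base ends, which marks no strand and carries no molecular identifiers. The build named is GRCm38 and the tools are TopHat2 2.0.13, Bowtie and bcl2fastq, per the submitters' processing notes. How reads were assigned to genes, with which strand setting and annotation release, is not given in the sources used here.

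Values in the deposited files are the authors' counts per Ensembl gene and the authors' TPM values. Of 6172 genes with at least 1000 counts in control 1, 97.6% have deposited TPM values within 5% of counts divided by the gene's genomic span, and 4.2% within 5% of counts divided by its exon length. Levels were therefore compared between genes on exon-length TPM, computed from the counts and GENCODE M21 exon unions, and not on the deposited TPM as first planned.

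Counts were filtered by edgeR's filterByExpr (13560 genes kept), scaled by TMM (factors 0.975 to 1.021) and tested by a robust two-sided quasi-likelihood fit to group (edgeR 4.0.16, R 4.3.3), with Benjamini-Hochberg adjustment over all tested genes and a threshold of 0.05. The fit was tested on simulated data. Alternatives were other scalings and filters, DESeq2 1.42.0, limma 3.58.1 on counts (voom) and on deposited log2 TPM with pseudocounts of 1 and 0.1, the replicate number as a block, and each library left out. Same-numbered libraries did not deviate together (correlations of -0.003, -0.022 and -0.076), so the block is an alternative only.

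The members, roles and partner lists were chosen with earlier results of these data known. The naming rule took every called gene, the 10 largest absolute log2 fold changes, the 2 most abundant members of each role by deposited TPM and a set list of motors. Close relatives and other members whose groups did not overlap were added after their values were seen. Promoter windows come from RefSeq (GRCm38.p6), and coordinates and exon overlaps from GENCODE M21.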

Additional observations from a re-analysis of the deposited data

How the results depend on the processing

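The single motor gene called higher, Kif21b, was called under every alternative run and with each library left out. The 2 called lower became 0 with limma on log2(TPM + 1) and on log2(TPM + 0.1) and 0 at an adjusted p below 0.01, and 0 to 2 with single libraries left out. DESeq2 called 3 lower, the third being Dync2h1. Over all genes the 454 calls became 1026 with DESeq2, 60 and 64 with limma on log2(TPM + 1) and log2(TPM + 0.1), 834 at an adjusted p below 0.1 and 90 below 0.01, and 101 to 631 with single libraries left out, with 221 without control 1, 101 without control 3, 176 without Insm1 library 2 and 196 without Insm1 library 3. With the replicate block, which pairs libraries by number, 331 genes were called, 299 of them also without it, and the same 3 motor genes were called. Over single named motor genes and alternatives, 506 values kept direction and side of the threshold, 11 (Dync1i1 and Kif26a) lost the call, 1 (Dync2h1) gained it and 23, all in genes not called, changed sign. The causes of these changes were not tested. Amplified counts without molecular identifiers and 3 libraries a group limit what can be seen in low members such as Kif27, Kif6 and Kif9.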
